A study of Mus musculus with 12 samples.

Results

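The genes described here serve protein folding, translocation and quality control in the endoplasmic reticulum (ER). They were taken from a fixed list of 40 genes, chosen by function but with earlier results of these data known. Of these, 39 were read among the 12255 genes measured on the arrays. The remaining gene, Srp54a, was read only by probe sets shared with other genes and was not analysed. The measured members comprised 12 ER lumen chaperones and co-chaperones, 6 genes of disulfide formation, 8 of translocation and signal peptide processing, 9 of ER-associated degradation (ERAD), and 4 for the stress sensors and Xbp1.

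The arrays read RNA from alpha cells (aTC1) and beta cells (bTC3), mouse lines derived from a glucagon-producing and an insulin-producing islet tumour, both driven by SV40 large T antigen. GW8510 is a small molecule that the study describes as a putative CDK2 inhibitor. The paper proposes that its effect on the insulin gene Ins2 likely has mechanisms other than CDK2 inhibition. It also reports toxicities at 3.3 µM, the dose of these arrays. Cultures of each line were kept for 5 days either with GW8510 at 3.3 µM or with the vehicle alone, and all groups contained DMSO at 0.1%. Each of the 4 groups held 3 biological replicates. For treated replicates 2 and 3 of each line the source names read GW8511 and GW8512, while their titles and compound fields read GW8510, which was followed. The growth protocol names the alpha line and a low-glucose medium only, no separate medium is given for the beta line, and each cell type was represented by 1 line, so line, cell type and culture cannot be told apart.

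Insulin and glucagon are made as precursors that enter the ER through the Sec61 channel, lose their signal peptide, and fold with the help of chaperones and of enzymes that form disulfide bonds. Proteins that fail to fold are exported to the cytosol and degraded by ERAD. When unfolded proteins accumulate, the sensors ATF6, IRE1 and PERK start the unfolded protein response, and cleaved ATF6 acts with the factor NF-Y at the ER stress element in promoters of many chaperone genes.

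Values are array intensities, compared as log2 differences with standard errors (SE) by limma across all genes, with Benjamini-Hochberg adjustment, and a gene is called higher or lower at an adjusted p under 0.05. Levels of different genes are not compared, because probe sets differ in brightness. The number of arrays limits the precision, and the median SE of a log2 change in alpha cells was 0.08 over all genes. Fewer cells of a type and less RNA per cell cannot be told apart in these bulk samples.

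Hormone genes followed the labels in part. Glucagon (Gcg) was at the upper bound of 20000 on every alpha array but averaged 6420 ± 366.8 (SD, n = 3) in beta cells with DMSO and 12040 ± 798.3 with GW8510. Ins2 was at the upper bound on every beta array and averaged 96.8 ± 1.82 in alpha cells with DMSO. In alpha cells GW8510 raised the beta cell markers Ins2, Iapp and Pdx1 (log2 changes of 0.64, 1.45 and 2.40), while Nkx6-1, Slc2a2 and G6pc2 did not pass. Of the alpha cell markers, Irx1 and Irx2 fell there (-0.78 and -0.45), Ttr and Pou3f4 rose (1.25 and 0.89) and Slc38a5 did not pass. Ttr was at the upper bound on every beta array and averaged 8351 ± 511.4 in alpha cells with DMSO. With GW8510 it read 19980, 19670 and 20000 in alpha cells, so the bound limits the rise that can be read. Among the beta cell markers, GW8510 raised Slc2a2 in beta cells from 87.5 ± 4.75 to 3037 ± 187 (log2 change of 5.12). Pdx1 and Nkx6-1 fell in that line (-0.20 and -0.27), G6pc2 did not pass, and Ins2 and Iapp stayed at the upper bound. Among the alpha cell markers, Gcg and Slc38a5 rose in beta cells (0.91 and 1.04), while Irx1, Irx2 and Pou3f4 did not pass. Somatostatin (Sst) averaged 17820 ± 646.3 in beta cells with DMSO. On the beta GW8510 replicate 3 array the median intensity was 199.9, against 173.7 to 182 on the other 11 arrays. In alpha cells GW8510 raised Krt7, a duct keratin, from 848.2 ± 33.5 to 2252 ± 40.1 and Cd68, a macrophage marker, from 61.6 ± 5.47 to 654.9 ± 43.3. The summed level of the 4 duct markers measured lay between 1046 and 1091 with DMSO and between 2418 and 2504 with GW8510, but Krt19, Sox9 and Cftr did not pass (log2 changes of 0.05, 0.02 and -0.09). The sum of the 4 leukocyte markers lay between 275.4 and 298.3 with DMSO and between 872.2 and 957.7 with GW8510, while Ptprc, which defines leukocytes, stayed at or near the lower bound of 20. Cd3e rose in alpha cells from 117.8 ± 1.4 to 149 ± 4.02 (adjusted p of 0.00926, limma), and Lyz2 did not pass (0.08). In beta cells GW8510 raised Krt7 from 192.1 ± 9.64 to 339.9 ± 39.0, the acinar marker Cela1 from 59.5 ± 11.5 to 120.6 ± 12.8 and the fibroblast marker Col1a2 from 156.9 ± 15.6 to 292.2 ± 31.2, each at an adjusted p under 0.05 (limma). The other duct, acinar and fibroblast markers measured did not pass in beta cells. Cela1 rose in alpha cells too, from 437.8 ± 9.69 to 642.9 ± 34.8 (adjusted p of 0.00201, limma). The part of these shifts in the ER gene results was not tested.

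Promoter sequence was examined because the ER stress element is the feature by which many of these genes are known. The element was searched as CCAAT and CCACG separated by 9 bases, its second form as ATTGG and CCACG separated by 1 base, and the core of the unfolded protein response element as TGACGTG, on both strands of RefSeq windows (GRCm38.p6) from 250 bases before to 50 bases after the transcription start. In all, 34 windows matched 33 of the 40 listed genes, and none was matched for Hyou1, Manf, Sec61a1, Ssr2, Sec11c, Derl1 and Atf6. The stretches below are the matches of genes on which the results turn, written in the direction of transcription with 20 bases on either side, the 5-base ends of the element in capitals (the complement of CCACG reads CGTGG and that of CCAAT reads ATTGG).
Hspa5, chr2:34772005-34772063, plus strand: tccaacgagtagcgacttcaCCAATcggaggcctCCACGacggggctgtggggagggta
Hsp90b1, chr10:86705513-86705676, minus strand: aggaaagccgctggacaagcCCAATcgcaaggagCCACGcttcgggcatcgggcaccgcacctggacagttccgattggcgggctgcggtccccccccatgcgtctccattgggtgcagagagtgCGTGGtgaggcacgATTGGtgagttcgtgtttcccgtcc
Calr, chr8:84847055-84847113, minus strand: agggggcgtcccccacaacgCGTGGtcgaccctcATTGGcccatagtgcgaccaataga
Creld2, chr15:88819500-88819558, plus strand: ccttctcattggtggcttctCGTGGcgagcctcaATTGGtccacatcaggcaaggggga
Dnajc3, chr14:118937807-118937865, plus strand: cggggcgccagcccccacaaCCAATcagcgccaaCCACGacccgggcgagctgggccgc
Ero1b, chr13:12565662-12565720, plus strand: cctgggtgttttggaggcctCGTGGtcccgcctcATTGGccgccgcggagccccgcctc
Herpud1, chr8:94386357-94386407, plus strand: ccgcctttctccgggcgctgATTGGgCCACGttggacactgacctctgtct
Derl3, chr10:75893222-75893280, plus strand: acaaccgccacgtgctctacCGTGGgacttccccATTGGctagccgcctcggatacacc

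The full element was present in 10 of 34 member windows (29.4%), against 39 of 32851 windows of all genes (0.119%). Hsp90b1 carried 2 copies, in opposite orientation. Besides the genes printed, Canx, Pdia6 and Syvn1 carried the full element. The second form was present in 2 member windows (Herpud1 and Dnajb11) and in 0.0365% of all windows. The core of the unfolded protein response element was present in 2 member windows (Hspa5 and Vcp) and in 2.01% of all windows. A match describes the letters in the window and is not evidence of binding.

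**Figure D1:**
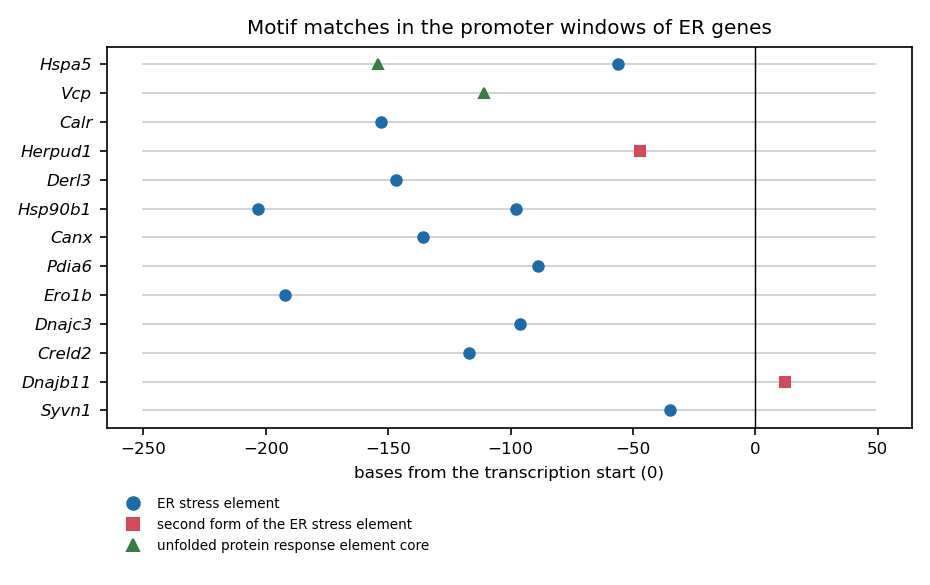
Positions of motif matches in promoter windows of ER genes, in bases from the transcription start at 0, with each grey line spanning 250 bases before to 50 bases after it. Circles mark the ER stress element, squares its second form and triangles the core of the unfolded protein response element, and all matches but that of Dnajb11 lie before the start.

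The level of the ER genes was first compared between the lines with DMSO. Of the 39 genes, 34 were lower in alpha than in beta cells (87.2%), 4 were higher and 1 did not pass, against 26.8% lower and 28.9% higher among all genes. The median difference was -1.09 on the log2 scale for the ER genes and 0.05 for all genes. By their brightest probe sets, all 12 chaperones and all 6 disulfide genes were lower in alpha cells, as were 7 of 8 translocation genes and 8 of 9 ERAD genes. For the disulfide gene Ero1a (-0.23), the 2 other probe sets were higher in alpha cells (1.10 and 1.22). The sensors did not share this direction: Atf6 and, by its brightest probe set, Eif2ak3 were higher in alpha cells, and Ern1 did not pass.

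Ero1b, the ER oxidase that is enriched in the pancreas and acts on proinsulin folding, differed most. Its intensities were 345.1, 345.7 and 338.6 in alpha cells with DMSO and 6090, 5597 and 5978 in beta cells. The difference was -4.10 ± 0.07 (SE) on the log2 scale with an adjusted p of 2.3e-13.

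Dnajc3, a J-domain co-chaperone of BiP, read 904.9, 854.5 and 896.4 in alpha cells and 6731, 6726 and 5855 in beta cells, a log2 difference of -2.86. Creld2, an ER protein induced by ER stress, read 689.8, 699.9 and 696.9 in alpha and 4821, 4400 and 4798 in beta cells, a log2 difference of -2.75. Sdf2l1, an ER lumen partner of J-domain co-chaperones, read 1288, 1256 and 1309 in alpha and 5828, 5743 and 6016 in beta cells, a log2 difference of -2.19. In each of these genes every alpha array lay below every beta array.

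Pdia6 and Pdia4, protein disulfide isomerases, followed the same direction. Pdia6 read 1742, 1820 and 1884 in alpha and 8811, 8284 and 8713 in beta cells, a log2 difference of -2.24. Pdia4 read 689.2, 597.4 and 646.1 in alpha and 2880, 2739 and 2763 in beta cells, a log2 difference of -2.12, although a much dimmer probe set of this gene gave 0.28 with an adjusted p of 0.265. The gap was smaller for P4hb, the founding member of the family, at -0.30 ± 0.05, and for the brightest probe set of Canx, the membrane-bound lectin chaperone, at -0.32 ± 0.06. The other 2 probe sets of Canx gave -0.95 and -0.83.

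Hspa5 (BiP), the main Hsp70 chaperone of the ER, averaged 7983 ± 104.2 (SD) in alpha and 13870 ± 434.9 in beta cells, a log2 difference of -0.80 ± 0.05 with an adjusted p of 2.98e-08. Hsp90b1, the Hsp90 of the ER, differed by -1.03, and Hyou1, an Hsp70-related exchange factor of BiP, by -1.48. Among translocation genes, Sec61a1, the channel subunit, differed by -1.21 and Sec61b by -1.01, and the signal peptidase subunits Spcs1 and Sec11c by -1.32 and -1.48. In each of these genes the arrays of the lines did not overlap.

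Of the 4 genes that were higher in alpha cells, Atf6 differed by 0.46 ± 0.06, Herpud1, an ERAD membrane protein of the Hrd1 ligase complex, by 0.35 ± 0.06, and Eif2ak3 (PERK) by 0.30 ± 0.06. The 2 other, much dimmer probe sets of Eif2ak3 gave -0.11 and 0.25, and neither passed. The mean of its probe sets did not pass (0.15, adjusted p of 0.0609). Sec63, a membrane J-domain protein at the channel, differed by 0.17 ± 0.05, but its other 3 probe sets gave -0.59, -1.29 and -1.33. Ern1 (IRE1) read 148.7, 165.8 and 152.2 in alpha and 125.1, 130.8 and 128.4 in beta cells, arrays that did not overlap, with an adjusted p of 0.0764. Without the beta GW8510 replicate 3 array, which this comparison does not use directly but which enters the shared estimate of spread, the adjusted p of Ern1 was 0.000485, and it was under 0.05 with 5 other settings too.

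**Figure D2:**
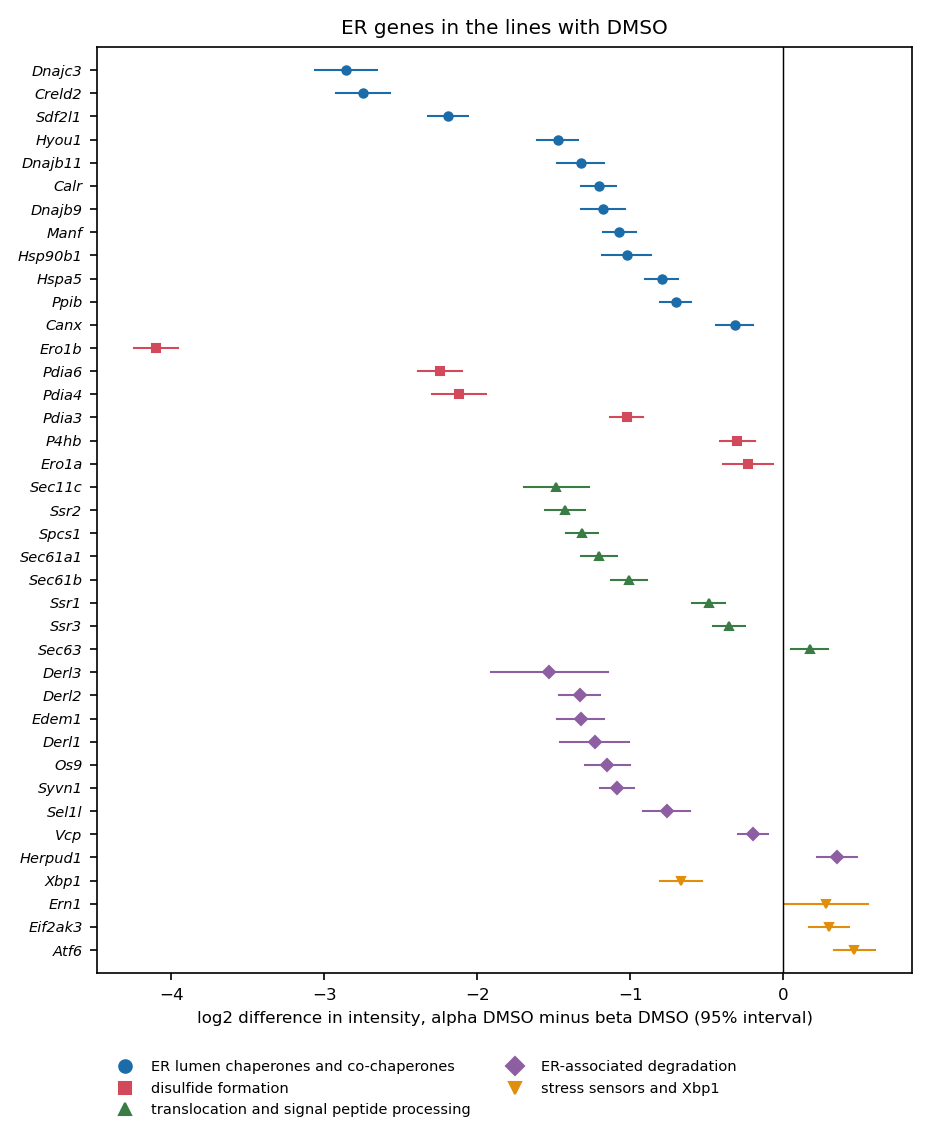
Log2 difference in intensity between alpha and beta cells with DMSO for each ER gene (points, n = 3 arrays a group) with its 95% confidence interval (lines), coloured by role. Points left of 0 are lower in alpha cells, as for 34 of the 39 genes, from -4.10 for Ero1b to 0.46 for Atf6.

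In alpha cells, GW8510 changed the ER genes in both directions. Of the 39 genes, 13 were higher (33.3%) and 14 were lower (35.9%), against 20.2% higher and 21.2% lower among all genes, and 12 did not pass. The median log2 change was 0.04 for the ER genes and 0.03 for all genes. The chaperones were divided, with 4 higher and 6 lower of 12, while 3 of the 4 stress sensor genes including Xbp1 were lower and none was higher. The count of higher genes was 8 instead of 13 without alpha DMSO replicate 2 and also without alpha GW8510 replicate 3. The marker changes in alpha cells given above, among them the rises of Krt7 and Cd68, were on the same arrays.

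In beta cells, more ER genes were lower than higher. Here 5 were higher (12.8%) and 14 were lower (35.9%), against 19.7% higher and 14.3% lower among all genes, and 20 did not pass. The median log2 change was -0.09 for the ER genes and 0.07 for all genes. Chaperones accounted for 7 of the 14 genes that were lower, and disulfide genes for 3 of the 5 that were higher. Without the beta GW8510 replicate 3 array, which stood apart, 17 genes were lower and 5 were higher. The marker changes in beta cells given above, among them the rises of Slc2a2, Krt7, Cela1 and Col1a2, were on the same arrays.

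The effects of GW8510 in both lines were set side by side. Lower in both lines were 9 genes (23.1%), against 9.04% of all genes: Hspa5, Hsp90b1, Hyou1, Dnajb9, Sdf2l1, Creld2, Herpud1, Sel1l and Atf6. Higher in both were 3 genes (7.69%), Ppib, Ero1b and Derl2, against 9.07% of all genes. The call of Ppib in alpha cells was lost under 14 of 23 other settings. Ero1a and P4hb were lower in alpha and higher in beta cells (5.13%, against 2.47% of all genes), and Sec63 was higher in alpha and lower in beta cells (2.56%, against 1.18%). Sel1l, Derl2 and Sec63 are counted here by their brightest probe set, and at least 1 other probe set of each gave the opposite sign in each line, as did another probe set of Hyou1 in alpha cells. The difference between the effects, tested as an interaction, was positive (more upward in alpha than in beta cells) for 13 genes and negative for 5, against 12% and 16.4% of all genes.

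**Figure D3:**
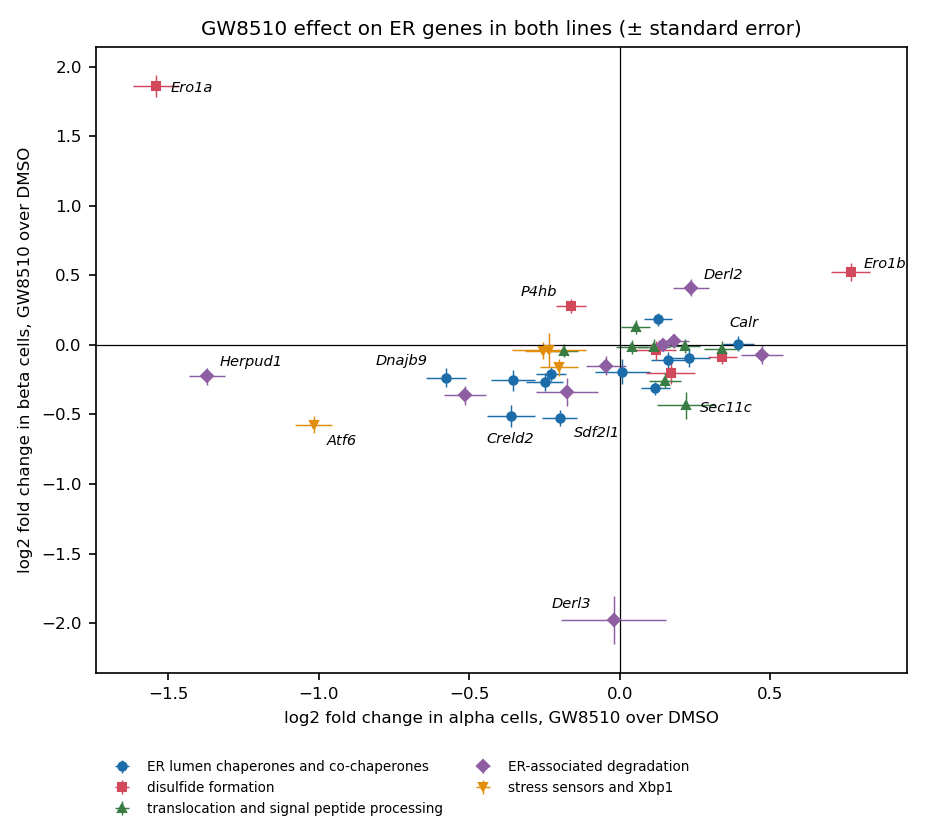
Log2 fold change of each ER gene with GW8510 over DMSO in alpha cells (horizontal) and beta cells (vertical), with bars of 1 standard error and n = 3 arrays a group. Most genes lie close to 0 on both axes, Ero1a stands alone at the upper left (-1.54 and 1.86), Herpud1 and Atf6 lie at the left, and Derl3 lies at the bottom (-1.98 in beta cells).

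Among the chaperones, Hspa5, Hsp90b1, Hyou1, Dnajb9, Sdf2l1 and Creld2 were lower with GW8510 in both lines. Hspa5 read 7863, 8036 and 8050 with DMSO and 6867, 6896 and 6675 with GW8510 in alpha cells, a fall by 14.7% (log2 change -0.23 ± 0.05, adjusted p of 0.00249). In beta cells it read 13750, 14360 and 13510 with DMSO and 11690, 11790 and 12520 with GW8510, and fell by 13.5% (adjusted p of 0.00608). The groups did not overlap in either line, and the difference between the effects was -0.02, with a 95% interval of -0.17 to 0.13.

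Hsp90b1 read 7831, 7823 and 6678 with DMSO and 5602, 5695 and 6131 with GW8510 in alpha cells, a log2 change of -0.35 ± 0.07. Its log2 change in beta cells was -0.25 ± 0.07 with an adjusted p of 0.0178, which rose to at most 0.0683 when single beta arrays were left out or a replicate block was used. Hyou1 changed by -0.25 in alpha and -0.27 in beta cells, though in alpha cells the mean of its 3 probe sets did not pass (adjusted p of 0.126).

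Dnajb9 (ERdj4), a co-chaperone of BiP that is induced by ER stress, was lowered more in alpha cells. It read 1722, 1828 and 1665 with DMSO and 1093, 1126 and 1285 with GW8510, a log2 change of -0.58 ± 0.07 with an adjusted p of 1.93e-05. The beta arrays read 3851, 3978 and 3970 with DMSO and 3296, 3271 and 3464 with GW8510, a log2 change of -0.23 ± 0.07 with an adjusted p of 0.0167, and of at most 0.0533 without a beta replicate 2 array. The difference between the effects was -0.34 ± 0.09 (adjusted p of 0.017, and 0.0516 with a replicate block).

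Sdf2l1 was lowered more in beta cells. With GW8510 it read 1112, 1133 and 1110 in alpha cells, a log2 change of -0.20 ± 0.06 with an adjusted p of 0.0168, and of 0.0577 without alpha DMSO replicate 3. In beta cells it read 3962, 3833 and 4448, a log2 change of -0.53 ± 0.06 with an adjusted p of 3.41e-05. The interaction gave 0.33 ± 0.08 with an adjusted p of 0.0122.

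Creld2 read 480.8, 601.3 and 549.2 in alpha cells with GW8510, a log2 change of -0.36 ± 0.08, and 3115, 3232 and 3507 in beta cells, a log2 change of -0.51 ± 0.08. The groups were apart in both lines and the effects did not differ at this threshold (0.15, with a 95% interval of -0.10 to 0.39).

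Manf, a small ER protein that binds BiP and is induced by ER stress, was lowered in beta cells. There it read 8723, 8517 and 8649 with DMSO and 6793, 6955 and 7091 with GW8510, a log2 change of -0.31 ± 0.05 with an adjusted p of 0.000392. In alpha cells it read 3905, 4204 and 4214 with DMSO and 4442, 4402 and 4526 with GW8510, a log2 change of 0.12 that did not pass (adjusted p of 0.0756). The interaction was 0.43 ± 0.07 with an adjusted p of 0.000623.

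The lectin chaperones, which hold newly made glycoproteins, were higher in alpha cells. Calr read 5410, 5253 and 5700 with DMSO and 7035, 7074 and 7372 with GW8510 in alpha cells, a log2 change of 0.39 ± 0.05 with an adjusted p of 5.64e-05. In beta cells its 6 arrays overlapped, between 12250 and 12990, and the log2 change was 0.01 ± 0.05. The interaction was 0.38 ± 0.07 with an adjusted p of 0.00192.

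By its brightest probe set Canx rose less in alpha cells, by 0.16 ± 0.06 on the log2 scale. The adjusted p was 0.0357 and reached at most 0.116 under other settings. Its 2 other probe sets rose by 0.37 and 0.35 (adjusted p of 0.00639 and 0.0174 when all probe sets were fitted). Dnajb11 (ERdj3), a J-domain co-chaperone, read 1401, 1452 and 1427 with DMSO and 1517, 1698 and 1820 with GW8510 in alpha cells, a log2 change of 0.23 ± 0.07 with an adjusted p of 0.0181, and at most 0.0744 with an array left out. Its log2 change in beta cells was -0.09 with an adjusted p of 0.349. These 2 calls in alpha cells, that of Canx by its brightest probe set, are therefore close to the threshold.

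Ppib (cyclophilin B), a prolyl isomerase, read 4155, 4251 and 4233 with DMSO and 4748, 4821 and 4800 with GW8510 in beta cells, a log2 change of 0.19 ± 0.05. In alpha cells the log2 change was 0.13 ± 0.05 with an adjusted p of 0.0484. That call was lost under 14 of 23 other settings, with an adjusted p of 0.171 at most. Dnajc3 did not pass in either line by its brightest probe set, with log2 changes of 0.01 in alpha and -0.19 in beta cells. The 4 other probe sets of Dnajc3 gave -0.59 to -1.12 in beta cells, each with an adjusted p under the threshold when all probe sets were fitted. They passed the interaction too (0.67 to 0.88), which the brightest did not (0.20, adjusted p of 0.302). The mean of its probe sets passed in beta cells (-0.73) and in the interaction (0.65).

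Among the ER genes, the largest change in alpha cells, the largest rise in beta cells and the largest interaction were those of Ero1a, the ER oxidase that reoxidizes protein disulfide isomerase and is known to be induced by hypoxia. It read 1061, 1024 and 871.7 with DMSO and 365.1, 331.3 and 318.8 with GW8510 in alpha cells. Its intensity there fell by 65.6% (log2 change -1.54 ± 0.08, adjusted p of 1.62e-08). Beta values were 1135, 1168 and 1157 with DMSO and 4301, 4134 and 4136 with GW8510, a 3.63-fold rise (log2 change 1.86 ± 0.08, adjusted p of 1.73e-08).

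The difference between these effects on Ero1a was -3.40 ± 0.11 with an adjusted p of 1.23e-09. The 2 other probe sets of the gene gave -1.81 and -1.85 in alpha and 1.28 in beta cells. They differed from the brightest one in the comparison of the lines with DMSO, where they read higher in alpha cells by 1.10 and 1.22, against -0.23 for the brightest.

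Ero1b moved in the same direction in both lines. In alpha cells it read 538.9, 618.6 and 597.1 with GW8510, a 1.70-fold rise from the DMSO values given above (log2 change 0.77 ± 0.07, adjusted p of 1.48e-06). In beta cells it read 8105, 8255 and 9009, a 1.44-fold rise (log2 change 0.52 ± 0.07, adjusted p of 7.7e-05). The interaction did not pass (0.25 ± 0.09, adjusted p of 0.0701). Even with GW8510, every alpha array stayed below the beta arrays with DMSO.

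Among the isomerases, P4hb moved in opposite directions. It read 7423, 7616 and 7086 with DMSO and 6742, 6544 and 6483 with GW8510 in alpha cells, a log2 change of -0.16 ± 0.05 whose adjusted p of 0.023 reached 0.115 under other settings. Its beta intensities were 8911, 8980 and 9351 with DMSO and 11420, 10730 and 10880 with GW8510, a log2 change of 0.28 ± 0.05 with an adjusted p of 0.00119. The interaction was -0.44 ± 0.07 with an adjusted p of 0.000717.

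Pdia3 (ERp57), which works with the lectin chaperones on glycoproteins, rose in alpha cells like Calr. It read 5548, 5924 and 5741 with DMSO and 7080, 7390 and 7330 with GW8510, a log2 change of 0.34 ± 0.05 with an adjusted p of 0.000121. In beta cells its log2 change was -0.09 ± 0.05 and did not pass, and the interaction was 0.43 ± 0.07 with an adjusted p of 0.000648. Pdia4 passed in neither line but passed the interaction (0.37 ± 0.12, adjusted p of 0.0302, and up to 0.493 when its 2 probe sets were averaged). Pdia6 did not pass by its brightest probe set, with log2 changes of 0.12 in alpha and -0.04 in beta cells. Its other, much dimmer probe set was lower in both lines (-0.26 and -0.48). The mean of its probe sets passed as lower in beta cells only (-0.26, adjusted p of 0.00227).

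**Figure D4:**
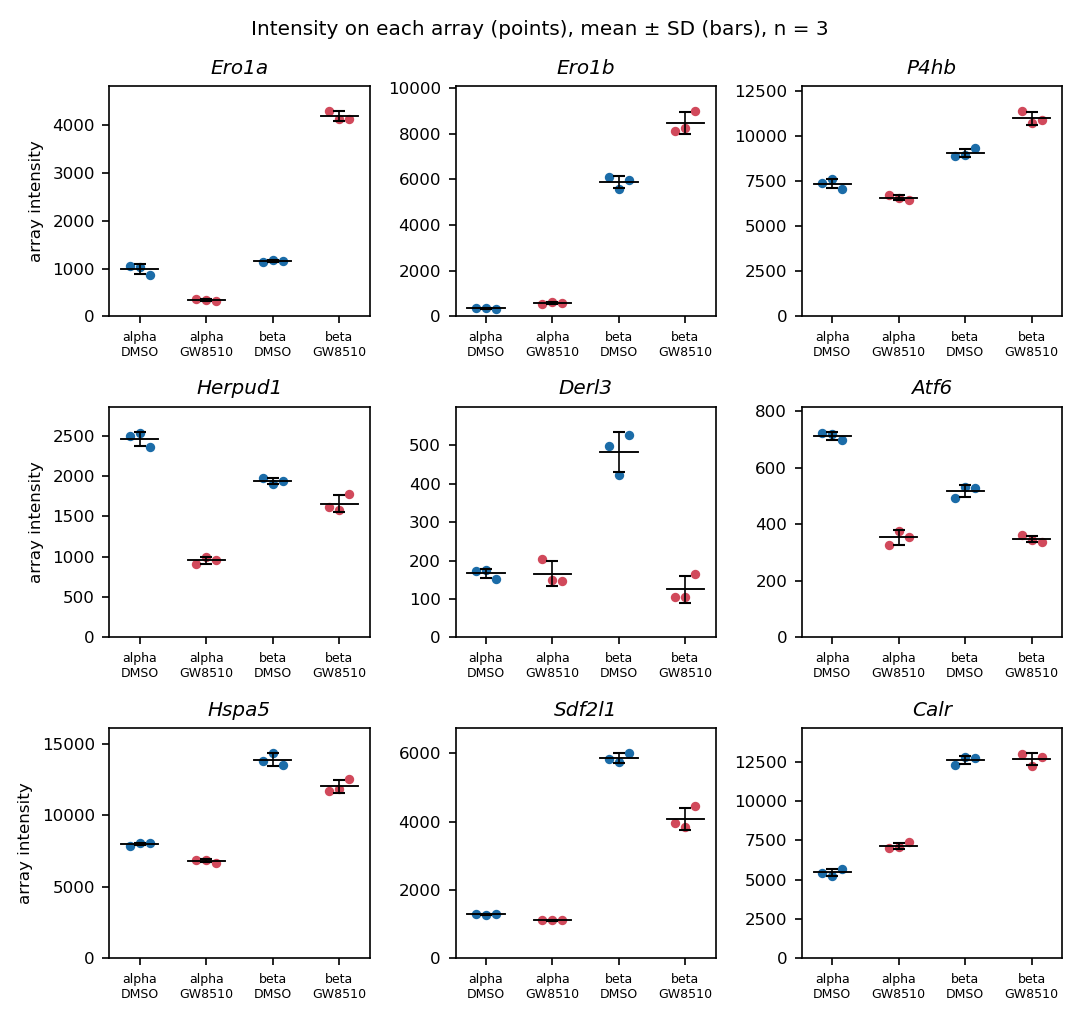
Array intensity (linear axes from 0, a scale of its own for each gene) on each of the 12 arrays for 9 ER genes, with points for arrays, long bars for group means and short bars for ± SD (n = 3). Ero1a falls in alpha and rises in beta cells, Ero1b rises in both from very different levels, Derl3 falls in beta cells to between 104.7 and 164.2, and Calr rises in alpha cells with no separation in beta cells.

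Among the translocation genes, the changes were small. In alpha cells 3 were higher (Sec63, Ssr1 and Ssr2), 1 was lower (Spcs1) and 4 did not pass, against 20.2% higher and 21.2% lower among all genes. In beta cells 2 were lower (Sec63 and Sec11c) and 6 did not pass, against 14.3% lower and 19.7% higher among all genes. Sec61b did not pass (0.11 in alpha and -0.01 in beta cells), nor did Sec61a1 by its brightest probe set (0.04 and -0.02). Of the 5 other probe sets of Sec61a1, 4 passed as higher in alpha cells (0.18 to 0.32), as did the mean of its probe sets (0.16, adjusted p of 0.0199).

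The subunits of the translocon-associated protein complex were not alike. Ssr2 read 1509, 1575 and 1477 with DMSO and 1845, 1911 and 2015 with GW8510 in alpha cells, a log2 change of 0.34 ± 0.06 with an adjusted p of 0.000553, against -0.03 in beta cells (interaction 0.37, adjusted p of 0.00583). Ssr1 read 3575, 3460 and 3377 with DMSO and 4023, 3913 and 4158 with GW8510 in alpha cells, a log2 change of 0.22 ± 0.05 that did not pass when its 3 probe sets were averaged (adjusted p of 0.0884). Ssr3 had log2 changes of 0.05 in alpha and 0.13 in beta cells, neither of which passed.

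Sec11c, a catalytic subunit of signal peptidase, read 4644, 4428 and 4561 with DMSO and 3412, 3634 and 3060 with GW8510 in beta cells, a log2 change of -0.44 ± 0.10 with an adjusted p of 0.00417. In alpha cells it read 1731, 1502 and 1649 with DMSO and 1738, 1762 and 2208 with GW8510, a log2 change of 0.22 that did not pass (adjusted p of 0.0936). The interaction was 0.65 ± 0.14 with an adjusted p of 0.00348. Its partner Spcs1 was lower in alpha cells by 0.19 on the log2 scale and did not pass in beta cells.

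Sec63 read 810.3, 821.5 and 811.5 with DMSO and 905.8, 880.2 and 925.5 with GW8510 in alpha cells, and 744.4, 740.5 and 687.1 with DMSO and 578.5, 604.8 and 634.2 with GW8510 in beta cells. The log2 changes were 0.15 (adjusted p of 0.0436) and -0.26 (adjusted p of 0.00297), and the interaction was 0.41 ± 0.08. Its 4 probe sets did not give 1 direction, and with their mean none of these values passed (adjusted p of 0.347, 0.366 and 0.219).

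Among the ERAD genes, Herpud1 and Derl3 changed most and differed between the lines. Herpud1, which is induced by the unfolded protein response, read 2497, 2527 and 2365 with DMSO and 912.3, 991.2 and 954.4 with GW8510 in alpha cells. It fell by 61.3% (log2 change -1.37 ± 0.06, adjusted p of 5.91e-09). In beta cells it read 1970, 1897 and 1936 with DMSO and 1621, 1572 and 1773 with GW8510, and fell by 14.5% (log2 change -0.23 ± 0.06, adjusted p of 0.011). The groups were apart in both lines and the interaction was -1.14 ± 0.08 with an adjusted p of 1.39e-06. The other probe set of Herpud1 gave -1.11 in alpha and -0.10 in beta cells, the latter with an adjusted p of 0.282.

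Derl3, a member of the derlin family of ER membrane proteins, showed the reverse distribution. In alpha cells it read 172.2, 174.8 and 152.9 with DMSO and 202.8, 149.1 and 145.9 with GW8510, so the groups overlapped. The beta arrays gave 498.4, 423.5 and 526 with DMSO and 104.7, 105.5 and 164.2 with GW8510, where Derl3 fell by 74.6% (log2 change -1.98 ± 0.17, adjusted p of 5.35e-06). The interaction was 1.96 ± 0.25 with an adjusted p of 9.7e-05. The alpha values with DMSO were already close to the treated beta values. Whether this low signal limited a fall in alpha cells was not tested. The highest of the treated beta values was on the replicate 3 array, and without that array the log2 change in beta cells was -2.19. Derl3 was read by 1 probe set.

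Edem1, which takes part in mannose trimming of misfolded glycoproteins, read 415.8, 499.1 and 462 with DMSO and 633.8, 638.3 and 632 with GW8510 in alpha cells, a log2 change of 0.47 ± 0.07 with an adjusted p of 0.000148. In beta cells its log2 change was -0.07 ± 0.07. Its other probe set, of similar brightness, rose in both lines (1.11 and 0.82), so the absence of a call in beta cells holds for 1 of 2 probe sets.

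The other derlins and Sel1l were read by probe sets that disagreed. Derl2 read 934.2, 874.4 and 951.3 with DMSO and 1014, 1112 and 1126 with GW8510 in alpha cells, a log2 change of 0.24, and 2328, 2259 and 2356 with DMSO and 2951, 3056 and 3239 with GW8510 in beta cells, a log2 change of 0.41. Its other probe set gave -0.27 in both lines.

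Derl1 read 4656, 4916 and 4322 with DMSO and 4087, 3499 and 3419 with GW8510 in beta cells, a log2 change of -0.34 ± 0.10 with an adjusted p of 0.0235, but another of its 4 probe sets gave 0.72. Sel1l, the partner of the Hrd1 ligase, read 334.5, 368.7 and 342.2 with DMSO and 240.5, 253.5 and 237 with GW8510 in alpha cells, and 609.5, 597.1 and 566.2 with DMSO and 423.2, 454.9 and 503.8 with GW8510 in beta cells. Its log2 changes were -0.52 and -0.36, whereas its other 3 probe sets gave 0.20 to 0.49 in alpha and 0.65 to 0.74 in beta cells. No direction is given for the transcripts of Derl1, Derl2 and Sel1l as a whole.

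Syvn1 (Hrd1), the ubiquitin ligase, was higher in alpha cells by 0.18 ± 0.05 on the log2 scale, and Vcp, the ATPase that extracts substrates, by 0.14 ± 0.04. Neither passed in beta cells, and their adjusted p-values in alpha cells of 0.0136 and 0.0211 rose to at most 0.0668 and 0.181 under other settings. Os9, a lectin of the pathway, did not pass in either line.

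Among the sensors, Atf6 fell in both lines. It read 723.1, 718.6 and 696.4 with DMSO and 327.1, 377.3 and 354.7 with GW8510 in alpha cells, and fell by 50.6% (log2 change -1.02 ± 0.06, adjusted p of 8.64e-08). In beta cells it read 493, 530.1 and 528.7 with DMSO and 361, 344.5 and 337.8 with GW8510, and fell by 32.8% (log2 change -0.57 ± 0.06, adjusted p of 2.42e-05). The fall was deeper in alpha cells (interaction -0.44 ± 0.09, adjusted p of 0.00236), and with GW8510 the arrays of both lines overlapped. Atf6 was read by 1 probe set.

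Eif2ak3, the kinase of the PERK branch, read 1606, 1557 and 1387 with DMSO and 1254, 1297 and 1258 with GW8510 in alpha cells, a log2 change of -0.25 ± 0.06 with an adjusted p of 0.00471. The beta line gave 1240, 1231 and 1222 with DMSO and 1149, 1201 and 1240 with GW8510, a log2 change of -0.04. Its other 2 probe sets, which averaged 60.6 and 64.5, gave 0.28 and 0.05 in alpha cells.

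Xbp1, the target of IRE1 splicing, read 4018, 4008 and 3657 with DMSO and 3414, 3438 and 3294 with GW8510 in alpha cells, a log2 change of -0.20 ± 0.06 with an adjusted p of 0.021, and at most 0.0791 with an array left out. In beta cells it read 6059, 6269 and 6213 with DMSO and 5405, 5212 and 5992 with GW8510, a log2 change of -0.16 that did not pass (adjusted p of 0.0685). It passed under 8 of 23 other settings, among them the mean of its probe sets (-0.18, adjusted p of 0.0129) and the omission of the replicate 3 array (-0.22, adjusted p of 0.0107), and 2 of its 3 other probe sets passed in beta cells (-0.25 and -0.23). Spliced and unspliced Xbp1 were not told apart by these values.

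Ern1 read 132.6, 132.3 and 131.1 with GW8510 in alpha cells and 110.4, 108.2 and 162.5 in beta cells, and passed in neither line (log2 changes of -0.24 and -0.04). Its highest treated beta value was on the replicate 3 array, without which Ern1 passed in both lines, with log2 changes of -0.24 in alpha cells (adjusted p of 0.00233) and -0.23 in beta cells (adjusted p of 0.00825). In alpha cells it also passed with array weights, with the mean of its probe sets and with only the arrays compared.

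Agreement between probe sets was checked for the 25 ER genes with more than 1 probe set. Of their 49 other probe sets, 32 had the sign of the brightest one in alpha cells, 30 in beta cells, 39 in the interaction and 41 in the comparison of the lines with DMSO. Among genes called in alpha cells, Hyou1, Sec63, Ssr1, Derl2, Sel1l, Vcp and Eif2ak3 had a probe set of the opposite sign.

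**Figure D5:**
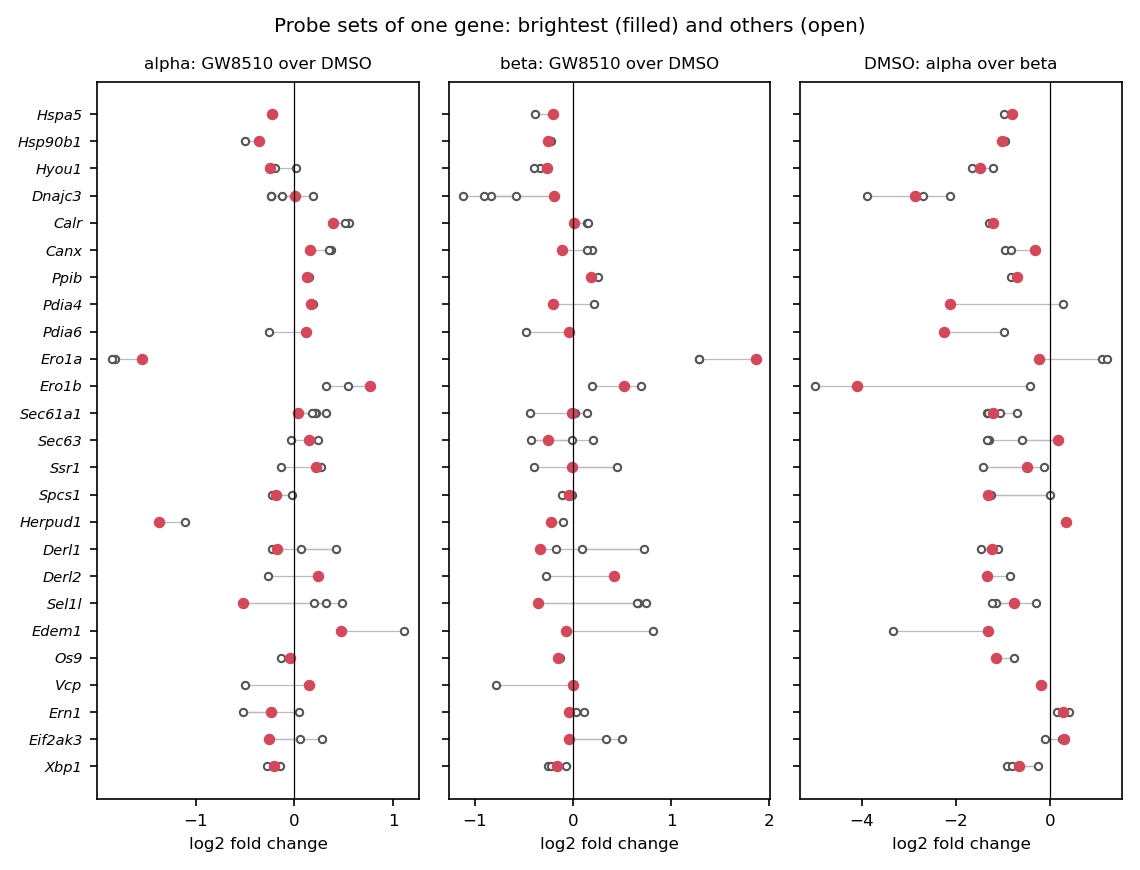
Log2 fold changes of the brightest probe set (filled) and the other probe sets (open) of the 25 ER genes with more than 1 probe set, for GW8510 over DMSO in alpha cells (left), in beta cells (middle) and for alpha over beta cells with DMSO (right). All 3 probe sets of Ero1a lie on 1 side of 0 in each line, while those of Sel1l, Derl1 and Derl2 lie on both sides.

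The genes with a promoter match were compared with the others as a description, with 20.2% of all genes higher and 21.2% lower in alpha cells and 19.7% higher and 14.3% lower in beta cells as the background. Of 12 measured genes with either form of the ER stress element, 5 were higher and 4 lower with GW8510 in alpha cells (median log2 change 0.06) and 1 was higher and 5 lower in beta cells (median -0.15). Of 20 measured genes with a window and neither form, 7 were higher and 8 lower in alpha cells (median 0.00), and 4 were higher and 4 lower in beta cells (median -0.04). Genes with a printed element were thus found among those that fell (Herpud1, Derl3, Creld2) and those that rose (Calr, Ero1b). In the comparison of the lines with DMSO, 11 of the 12 and 17 of the 20 were lower in alpha cells (26.8% of all genes), with medians of -1.27 and -0.73.

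Other genes of the same pathways were read as a wider view. Of 100 such genes, 25 were higher and 35 lower with GW8510 in alpha cells, against 20.2% and 21.2% of all genes. In beta cells 30 were higher and 19 lower, against 19.7% and 14.3%. In alpha over beta cells with DMSO 21 were higher and 58 lower, against 28.9% and 26.8%. The same shares of all genes apply to the counts of the separate lists that follow. The median difference of the lines was -0.32, against -1.09 for the ER genes above and 0.05 for all genes.

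Of 17 other genes of the sensor branches, 10 were lower (58.8%) and 1 was higher (5.88%) with GW8510 in alpha cells, against 21.2% and 20.2% of all genes. The stress-induced genes Nupr1, Chac1, Trib3 and Ddit3 changed by -3.15, -2.79, -2.35 and -2.35 on the log2 scale in alpha cells. In beta cells 4 of the 17 were higher and 4 were lower, with the largest log2 changes in Mbtps1, the protease that cleaves ATF6 (-0.69), Nupr1 (0.64), Chac1 (-0.54) and Ppp1r15a, a phosphatase subunit that reverses PERK signalling (0.51). Mbtps1 was also lower in alpha cells (-1.01, adjusted p of 1.43e-07). Wfs1, an ER membrane protein abundant in beta cells, was higher with GW8510 in alpha cells (0.56) and lower in alpha than in beta cells with DMSO (-2.04).

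Of 36 other folding and glycosylation genes, 8 were higher and 12 lower in alpha cells, 8 were higher and 8 lower in beta cells, and 28 were lower in alpha than in beta cells with DMSO. Magt1, an oligosaccharyltransferase subunit, and Calu, a calcium-binding ER protein, rose in alpha cells by 0.96 and 0.80. Uggt1, the folding sensor of glycoproteins, fell in beta cells (-0.71) and was higher in alpha than in beta cells with DMSO (1.20). The largest differences between the lines were those of Selenom (-2.83), Rcn1 (-2.68), Pdia5 (-2.67) and Magt1 (-2.56).

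Of 24 other translocation genes, 9 were higher and 6 lower in alpha cells, and 8 were higher and 5 lower in beta cells. Subunits of the ER membrane complex, which inserts membrane proteins, included Emc4 (0.85 in alpha cells) and Emc6 (0.51 in beta cells) on the higher side and Emc10 (-0.54 in alpha cells) on the lower. Ssr4, another subunit of the translocon-associated complex, was lower in both lines (-0.43 and -0.55), and Srp68, of the signal recognition particle, was lower in alpha cells (-0.64). Of 23 other ERAD genes, 7 were higher and 7 lower in alpha cells, and 10 were higher and 2 lower in beta cells. Trim13, an ER ubiquitin ligase, was higher in both (1.43 and 0.66), whereas Erlin1, which forms an ER membrane complex for degradation, was lower in alpha (-0.58) and higher in beta cells (0.21).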

How the data were processed

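The arrays were Affymetrix mouse expression arrays, 12 in all. The deposited values are intensities per probe set on a linear scale, which the authors made with RMA per the submitters' processing notes (version not stated). RMA corrects background, normalizes arrays to each other and summarizes probes, which can remove global shifts between groups. The deposited arrays did not share a full distribution, with medians from 173.7 to 199.9 and 703 to 1109 probe sets at the lower bound. The values lie between 20 and 20000, bounds read from the values that limit dim and bright probe sets, and no ER gene was at a bound on any array. Here log2 was taken with no pseudocount. Of 22690 probe sets, 64 were controls, 20380 carried 1 gene symbol, 691 several and 1555 none, and 330 with 1 symbol were at a bound on all arrays and were left out. Each of 12255 genes was read by its brightest probe set, by the mean over all arrays.

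All 12 arrays were fitted together in limma 3.58.1 (R 4.3.3) with 4 contrasts and Benjamini-Hochberg adjustment over all genes, because the study names no test for the arrays. The code was tested on simulated data. The ER genes and the other lists were chosen with earlier results of these data known. Values on every array are given for up to 8 rises and 8 falls per contrast, for the sensors, Xbp1 and genes of opposite effects (Hspa5 was added), and of the other genes up to 4 per list and contrast are eligible to be named. Alternatives varied the normalization, the probe set, a filter on the dimmest 25% of genes, a pseudocount of 16, the estimate of spread, array weights, the arrays fitted, a block for the replicate number, and the omission of each array. Same-numbered DMSO and GW8510 arrays did not deviate together (correlations of -0.13 to 0.08), so the numbers were not treated as pairs.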

Additional observations from a re-analysis of the deposited data

Results flagged for a closer look

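The GW8510 effect differed between alpha and beta cells for 18 of the 39 ER genes, by the interaction contrast of limma at an adjusted p under 0.05 (13 upward and 5 downward, against 12% and 16.4% of all genes). Values are the log2 effect in alpha cells minus that in beta cells. The effect was more upward in alpha cells for Derl3 (1.96), Sec11c (0.65), Edem1 (0.54), Manf (0.43), Pdia3 (0.43), Sec63 (0.41), Calr (0.38), Pdia4 (0.37), Ssr2 (0.37), Sdf2l1 (0.33), Dnajb11 (0.32), Canx (0.27) and Ssr1 (0.22). It was more downward in alpha cells for Ero1a (-3.40), Herpud1 (-1.14), Atf6 (-0.44), P4hb (-0.44) and Dnajb9 (-0.34). Of these, Dnajb9, Dnajb11, Canx, Pdia4, Sec63 and Ssr1 lost the call under at least 1 alternative, and the other 12 kept it under all 22 that could be run. No alternative used the other probe set of Edem1 alone, which gave 0.29 (adjusted p of 0.344 when all probe sets were fitted). Groups of 3 arrays are too small for a test of single outlying arrays.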

How the results depend on the processing

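Across 23 alternatives, 3549 values of the ER genes were recomputed, of which 3350 kept their direction and their side of the threshold (including 48 sign changes in which neither value passed), 107 lost the call, 77 gained one and 15 reversed. Calls were kept in all alternatives for 13 of 27 genes in alpha cells, 12 of 19 in beta cells, 12 of 18 in the interaction and 34 of 38 between the lines. The replicate block gave 9 higher and 13 lower in alpha cells, 5 and 13 in beta cells, 11 and 4 in the interaction, and 3 and 32 between the lines. Fitting only the arrays of the groups compared could not be done for the interaction, which needs all 4 groups. With array weights 20 genes instead of 13 were higher in the interaction, and the beta median was -0.12. The beta median was -0.14 with quantile normalization, -0.12 with each array centred, -0.056 with the mean of the probe sets and -0.044 with probe sets of no _x or _s suffix. The alpha median was 0.12 with the latter. The interaction median was 0.20 with each array centred, and the median between the lines was -1.06 with each array centred, -1.01 with the mean of the probe sets and -1.14 with probe sets of no such suffix. Leaving out single arrays gave 8 to 14 higher and 12 to 15 lower in alpha cells, 5 to 6 and 11 to 17 in beta cells, 10 to 14 and 5 to 6 in the interaction, and 3 to 5 and 33 to 34 between the lines, with medians of 0.02 to 0.06, -0.12 to -0.064, 0.11 to 0.16 and -1.12 to -1.07. With the mean of the probe sets the sign turned in alpha cells for Derl2 (-0.017), Sel1l (0.12), Vcp (-0.18) and Eif2ak3 (0.027), in beta cells for Derl1 (0.075), Sel1l (0.42), Edem1 (0.37) and Eif2ak3 (0.27), and between the lines for Ero1a (0.70) and Sec63 (-0.76). With probe sets of no such suffix it turned in alpha cells for Derl1 (0.42) and Sel1l (0.49), in beta cells for Derl1 (0.72) and Sel1l (0.74), and in the interaction for Derl1 (-0.31). These turns follow from the probe sets used, and the cause of their disagreement was not tested.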
